A study of Homo sapiens with 2 samples.

Results

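A set of 10 regulators and markers of the epithelial-mesenchymal transition (EMT) was followed in A549, a cell line from a human lung adenocarcinoma. They were the zinc-finger repressors ZEB1, ZEB2, SNAI1, SNAI2 and SNAI3, the bHLH factor TWIST1, the intermediate filament protein gene VIM, the epithelial splicing regulators ESRP1 and ESRP2, and the epithelial repressor OVOL1. They were taken by gene symbol, and all 10 were found among the 58302 genes listed. RNA-seq counts were available for 1 library of A549 cells labelled as the overexpression control and 1 library of A549 cells overexpressing PGC-1α, a transcriptional coactivator best known for driving mitochondrial genes. Both cultures were grown under standard conditions in F12K medium with 10% serum. The labels name no vector, clone or time after gene transfer. The comparison asks which of these genes differ when PGC-1α is raised. With 1 library per group there was no replicate check and no test, and each 95% interval below covers counting error only.

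EMT is the programme by which epithelial cells lose cell-cell junctions and gain a migratory, fibroblast-like form. ZEB, SNAI and TWIST proteins bind E-box sequences in epithelial genes such as CDH1 and recruit corepressors. The miR-200 family represses ZEB1 and ZEB2 and is itself repressed by them. ESRP1 and ESRP2 keep epithelial exons in transcripts such as FGFR2 and CD44, and OVOL1 opposes ZEB1. Carcinoma cells can hold parts of both states at once.

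The 2 libraries held 27125084 and 24334768 counts, for the control and the PGC-1α library in that order, which is kept below. PPARGC1A, which encodes PGC-1α, had 5 and 4654 counts, the direction of the labels. Levels are given as CPM, the count scaled to the library size after TMM normalisation, and a gene was treated as measured when its mean over both libraries reached 1 CPM. A gene counted as called, higher or lower, when the PGC-1α library differed at least 1.5-fold from the control (0.58 on the log2 scale) and the interval of the ratio excluded 1. Of the lung epithelial line markers KRT8, KRT18, KRT7 and EPCAM, all 4 were measured, with KRT8 at 3868 and 3899 CPM and KRT7 at 2086 and 2616 CPM. Markers of other cell types were sparse. Of 7 endothelial markers none was measured, 4 had no count in either library, and the highest single value was 3 counts. Of 8 immune markers, 6 had at most 3 counts in each library, among them PTPRC and CD3E. CD14 was the immune marker called lower, with 6.01 and 3.39 CPM. ITGAM, the other measured immune marker, had 45 and 56 counts and was not called, with a log2 ratio of 0.48 (-0.10 to 1.09). Of 8 fibroblast markers, 3 were measured, POSTN had no counts and DCN had 2 counts in each library. COL1A1, also one of the mesenchymal genes below, was the measured fibroblast marker called higher. LUM, under the filter with 14 and 31 counts, also met the fold and interval conditions, with a log2 ratio of 1.29 (0.37 to 2.34). PDGFRA, with 14 and 5 counts, and PDGFRB, with 15 and 7, lay on the other side and were not called. Their log2 ratios were -1.23 (-3.14 to 0.24) and -0.88 (-2.46 to 0.45). The other measured fibroblast markers, COL3A1 at -0.14 and THY1 at 0.09, were not called. The summed level of the list was 35.6 and 48.6 CPM, of which COL1A1, with 570 and 799 counts, was the largest part in both libraries. Their part in the results was not tested.

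Of the 10 EMT regulators 6 were measured: ZEB1, ZEB2, SNAI1, SNAI2, TWIST1 and VIM. Of these 1, ZEB2, was called, and it was lower in the PGC-1α library. Among all 14154 measured genes 9.22% were called in either direction, 5.30% higher and 3.92% lower, so 1 call among 6 genes is near the background. The other 5 measured regulators differed by less than 1.5-fold. The median log2 ratio of the 6 was 0.18, against -0.01 for all measured genes. The 4 regulators under the filter were SNAI3, ESRP1, ESRP2 and OVOL1.

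**Figure D1:**
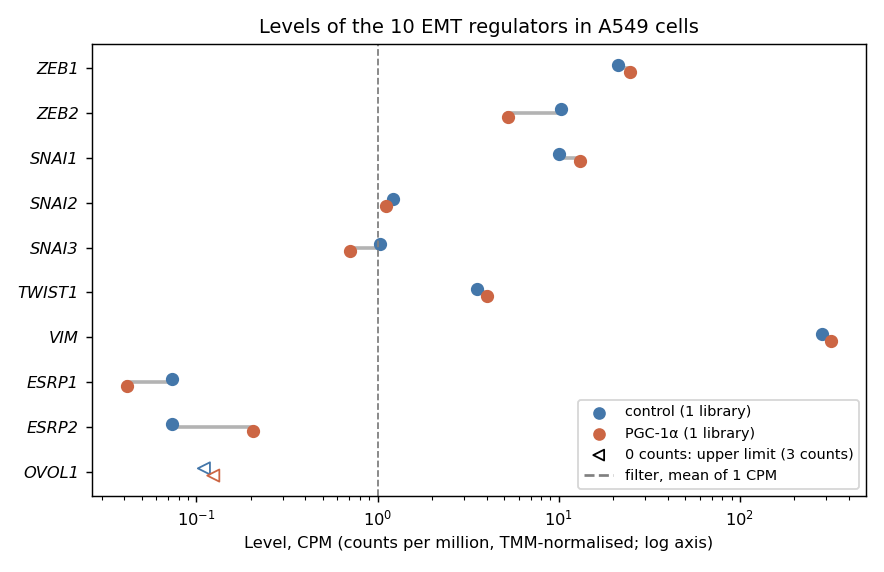
Level of each of the 10 regulators in the control library (blue) and the PGC-1α library (orange), in CPM on a log axis; open triangles are upper limits for 0 counts and the dashed line is the filter at 1 CPM. VIM lies at 283 and 319 CPM, the ZEB, SNAI1 and TWIST1 genes between 3.52 and 24.6 CPM, and ESRP1, ESRP2 and OVOL1 at or under 0.207 CPM; ZEB2 shows the widest gap among the measured genes.

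To compare genes with each other, levels were read per length as the authors' FPKM. VIM stood highest, at 55.2 and 61.5 FPKM. SNAI1 followed at 6.02 and 7.74 FPKM, then ZEB1 at 2.46 and 2.83 FPKM and TWIST1 at 1.74 and 1.96 FPKM. The counting intervals of neighbours in this order, down to TWIST1, did not overlap in either library. SNAI3 at 0.597 and 0.403 FPKM and SNAI2 at 0.553 and 0.503 FPKM had overlapping intervals and could not be ordered. ZEB2 was listed at 0.417 and 0.209 FPKM, and its interval overlapped those of SNAI2 and SNAI3 in the control library and that of SNAI3 in the PGC-1α library. The place of ZEB2 depends on the length used. The files give it 24970 bases, close to the 25058 bases that all exons of its 48 annotated transcripts cover in GENCODE release 29. Per kilobase of the transcript with the longest coding sequence, 9583 bases, ZEB2 stood at 1.08 and 0.548 CPM per kilobase, beside SNAI2 at 0.498 and 0.459 and SNAI3 at 0.593 and 0.406. On this scale the counting interval of ZEB2 in the control, 0.957 to 1.21, lay above those of both SNAI genes. In the PGC-1α library its interval, 0.456 to 0.651, overlapped both, and the 3 genes could not be ordered. ESRP1 and ESRP2 lay between 0.00842 and 0.0369 FPKM and OVOL1 was listed at 0.

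The ZEB pair diverged between the libraries. ZEB1 (ENSG00000148516, chromosome 10, 31318495 to 31529814, plus strand), a repressor of CDH1 and of the miR-200 genes, had 576 and 596 counts. This gave 21.1 and 24.6 CPM and a log2 ratio of 0.22 (0.05 to 0.39), slightly higher and under 1.5-fold. ZEB2 (ENSG00000169554, chromosome 2, 144364364 to 144524583, minus strand), its paralogue and a SMAD-interacting repressor, was counted 282 times in the control but 127 times with PGC-1α. This gave 10.3 and 5.25 CPM and a log2 ratio of -0.98 (-1.29 to -0.67), or 1.97-fold lower. ZEB2 was not called at a 2-fold threshold, or on the FPKM scale with a pseudocount of 1, where its log2 ratio was -0.23. Of the 14154 measured genes, 181, or 1.28%, had a ratio as low as that of ZEB2 or lower. Among the 2531 genes with a mean of 5 to 15 CPM, the range ZEB2 falls in, 5.18% were called lower. In bulk RNA, fewer cells holding a transcript and less of it per cell cannot be told apart.

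ZEB2 made up 32.9% of the counts of the pair in the control (exact 95% interval 29.7 to 36.1, 858 counts) and 17.6% in the PGC-1α library (14.9 to 20.5, 723 counts). The change of ZEB2 relative to ZEB1 was -1.20 on the log2 scale (-1.56 to -0.85), a value that needs no scaling between the libraries. In FPKM, ZEB1 exceeded ZEB2 5.90-fold in the control and 13.5-fold in the PGC-1α library. The size of this excess depends on the length used for ZEB2. Per kilobase of the transcript with the longest coding sequence, ZEB1 stood at 3.53 and 4.11 CPM per kilobase and ZEB2 at 1.08 and 0.548. No gene overlapping ZEB2 held a count in either library, including the antisense gene ZEB2-AS1. ZEB1 overlaps ZEB1-AS1 on the opposite strand, which had 54 and 60 counts, and the pseudogene SPTLC1P1 on the same strand, with 2 and 10 counts.

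Starting regions from RefSeq, on GRCh38.p14, were looked up for all regulators but SNAI2 and ESRP1 and matched for 3, ZEB1, ZEB2 and VIM. They are shown because the ZEB paralogues moved apart while VIM moved little. Each runs from 250 bases before to 50 bases after an annotated start, on the strand of the gene. Capitals mark the E-box CACCTG or its reverse complement CAGGTG, the letters that ZEB and SNAI zinc fingers bind.
ZEB1, chr10:31318167-31318466, plus strand: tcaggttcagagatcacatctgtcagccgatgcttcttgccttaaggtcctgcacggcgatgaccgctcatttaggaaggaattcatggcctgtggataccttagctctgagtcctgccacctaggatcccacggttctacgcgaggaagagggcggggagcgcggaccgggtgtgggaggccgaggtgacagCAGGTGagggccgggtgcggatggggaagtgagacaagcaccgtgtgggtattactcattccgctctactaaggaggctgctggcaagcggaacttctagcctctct
ZEB2, chr2:144520070-144520369, minus strand: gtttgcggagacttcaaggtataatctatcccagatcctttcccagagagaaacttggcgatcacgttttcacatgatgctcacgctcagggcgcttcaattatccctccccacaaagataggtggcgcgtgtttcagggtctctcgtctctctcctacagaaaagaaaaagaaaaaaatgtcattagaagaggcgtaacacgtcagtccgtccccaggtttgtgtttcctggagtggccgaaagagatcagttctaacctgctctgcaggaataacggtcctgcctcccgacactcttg
VIM, chr10:17227991-17228290, plus strand: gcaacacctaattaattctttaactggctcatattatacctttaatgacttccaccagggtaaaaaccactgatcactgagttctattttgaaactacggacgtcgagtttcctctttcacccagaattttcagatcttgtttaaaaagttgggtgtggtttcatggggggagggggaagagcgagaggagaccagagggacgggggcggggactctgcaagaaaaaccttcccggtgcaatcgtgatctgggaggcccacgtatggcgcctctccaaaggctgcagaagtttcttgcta
The E-box was found once in the ZEB1 window, beginning at position -57 from the start, and not in the ZEB2 or VIM windows. The windows are not alike in place: the start used lies 78 bases from the gene start listed in the files for ZEB1 and 18 bases for VIM, but 4464 bases inside the listed gene for ZEB2. RefSeq gives ZEB1 7 starts, of which the one nearest the listed gene start is shown, and 2 of the 7 windows held the motif. Of all 35116 windows of 300 bases, 20.6% held it. A match is a run of letters and not a measured binding site.

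The miR-200 family is the main post-transcriptional brake on both ZEB genes, and its members fall into 2 seed groups. They are shown with the seed, bases 2 to 8, in capitals, from RefSeq.
hsa-miR-200b-3p: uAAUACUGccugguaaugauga
hsa-miR-200c-3p: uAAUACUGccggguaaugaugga
hsa-miR-429: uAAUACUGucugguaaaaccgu
hsa-miR-200a-3p: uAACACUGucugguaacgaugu
hsa-miR-141-3p: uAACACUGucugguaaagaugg
The first 3 share one seed and the last 2 the other. In the GENCODE 3′ UTR of ZEB1, 2549 bases long, the complement of the first seed occurred 6 times and that of the second 3 times. In that of ZEB2, 5370 bases long, the counts were 5 and 4. The first match to the first seed in each is given, with the seed match in capitals.
ZEB1: attgttttatcttatCAGTATTa
ZEB2: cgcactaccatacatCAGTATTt
Both ZEB genes thus carry several matches to both seeds. The hairpin genes MIR200A, MIR200B, MIR200C and MIR141 had no counts in either library, and MIR429 had 0 and 1. MIR200CHG, the host gene of the MIR200C cluster, had 1 and 0 counts. Mature microRNAs were not measured by these libraries.

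SNAI1 (ENSG00000124216, chromosome 20, 49982999 to 49988886), the short-lived zinc-finger repressor that starts many EMT programmes, was the most expressed SNAI gene. It had 275 and 318 counts, or 10.1 and 13.1 CPM. Its log2 ratio of 0.38 (0.14 to 0.62) was the highest of the 6 measured regulators and lay under 1.5-fold. No listed gene overlaps it.

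SNAI2 (chromosome 8, 48917768 to 48921740), which encodes Slug, a repressor active in neural crest and basal epithelial cells, was near the filter. It had 33 and 27 counts, or 1.21 and 1.12 CPM, with a log2 ratio of -0.11 (-0.91 to 0.66). At this depth the interval reached past 1.5-fold in both directions. SNAI3 (chromosome 16, 88677682 to 88686493), the third repressor of the family, had 28 and 17 counts, or 1.03 and 0.702 CPM. Its log2 ratio was -0.53 (-1.51 to 0.37), and a difference was not detectable at this depth. SNAI3 lies wholly inside the antisense gene SNAI3-AS1, which was more abundant at 134 and 89 counts with a log2 ratio of -0.42 (-0.82 to -0.02), so its counts are uncertain without a strand setting. Relative to SNAI1, the changes were -0.50 (-1.33 to 0.32) for SNAI2 and -0.93 (-1.92 to 0.03) for SNAI3, and both intervals included 0.

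TWIST1 (ENSG00000122691, chromosome 7, 19020991 to 19117672), a bHLH factor of mesoderm that also represses CDH1, had 96 and 97 counts, or 3.52 and 4.01 CPM. Its log2 ratio was 0.19 (-0.24 to 0.61). Its paralogue TWIST2, named after its values were seen, had 263 and 173 counts, with a ratio on the log2 scale of -0.43 (-0.72 to -0.15), also under 1.5-fold. TWIST1 relative to TWIST2 changed by 0.62 (0.11 to 1.13), so the interval for this pair excluded 0 while neither gene was called.

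VIM (ENSG00000026025, chromosome 10, 17228259 to 17237593), the type III intermediate filament protein of mesenchymal cells and a standard EMT marker, had 7719 and 7725 counts. This gave 283 and 319 CPM and a log2 ratio of 0.17 (0.13 to 0.22), or 1.13-fold higher. The counting error of VIM is small, and its ratio still lay well under 1.5-fold. Relative to the epithelial keratin gene KRT8 the change was 0.16 (0.11 to 0.21), and KRT8 exceeded VIM 10.2-fold and 9.16-fold in FPKM. VIM-AS1, which overlaps the start of VIM on the opposite strand, had 15 and 20 counts.

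**Figure D2:**
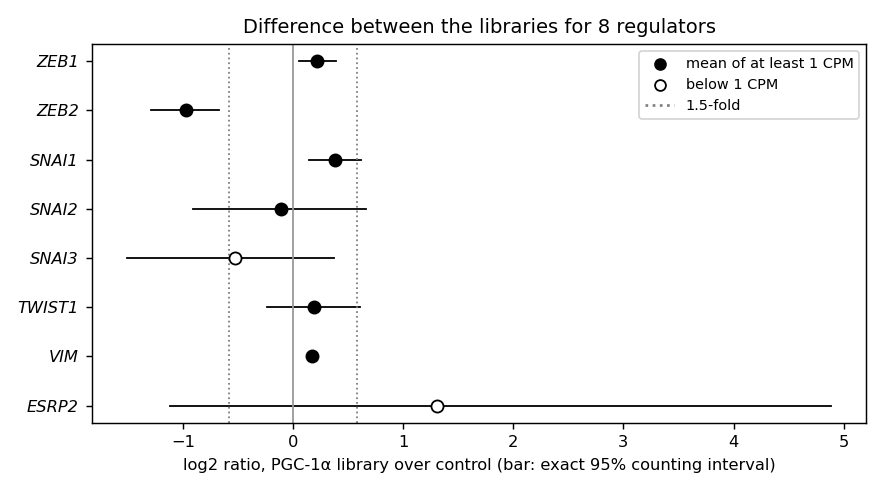
Log2 ratio, PGC-1α over control, for the 8 regulators with more than 3 counts in a library; bars are exact 95% counting intervals, filled points reached a mean of 1 CPM and dotted lines mark 1.5-fold. ZEB2 at -0.98 is the only point whose whole interval lies beyond 1.5-fold, and the interval of ESRP2 runs from -1.12 to 4.89.

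The epithelial members of the set had few or no counts in both libraries. ESRP1 (chromosome 8, 94641074 to 94707466) and ESRP2 (chromosome 16, 68229111 to 68238102) encode RNA-binding proteins that switch exons to their epithelial form. ESRP1 had 2 and 1 counts, at or under the limit of 3 counts in both, so no ratio is given. ESRP2 had 2 and 5 counts, or 0.0733 and 0.207 CPM, with a log2 ratio of 1.31 (-1.12 to 4.89). A difference in ESRP2 was not detectable at this depth. NFATC3, which overlaps the last 149 bases of ESRP2 on the opposite strand, had 696 and 600 counts, so even these few counts are uncertain. OVOL1 (chromosome 11, 65787022 to 65797219), a zinc-finger repressor of ZEB1 in epithelia, had 0 counts in each library, which allows up to 0.110 and 0.124 CPM.

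Of the cadherins used to read out EMT, CDH1 was called lower and CDH2 was not called. CDH1, the epithelial cadherin gene and classic target of ZEB and SNAI factors, had 1308 and 600 counts. This gave 48.0 and 24.8 CPM and a log2 ratio of -0.95 (-1.09 to -0.81). CDH2, the mesenchymal cadherin gene, had 1530 and 1651 counts, with a log2 ratio of 0.28 (0.18 to 0.38), under 1.5-fold. CDH1 made up 46.1% of the counts of the 2 cadherins in the control (44.2 to 47.9) and 26.7% in the PGC-1α library (24.8 to 28.5). EPCAM, an epithelial surface protein gene, had 89 and 118 counts, with a log2 ratio of 0.58 (0.17 to 0.99), just under the threshold. CDH1 and ZEB2, a target and one of its repressors, were both lower in the PGC-1α library. Of the other repressors, SNAI1, ZEB1 and TWIST1 had log2 ratios above 0 and under 1.5-fold, and the interval of TWIST1 included 0. SNAI2 at -0.11, SNAI3 at -0.53 and TWIST2 at -0.43 lay below 0 and were not called. The part of any of these repressors in the level of CDH1 was not tested.

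**Figure D3:**
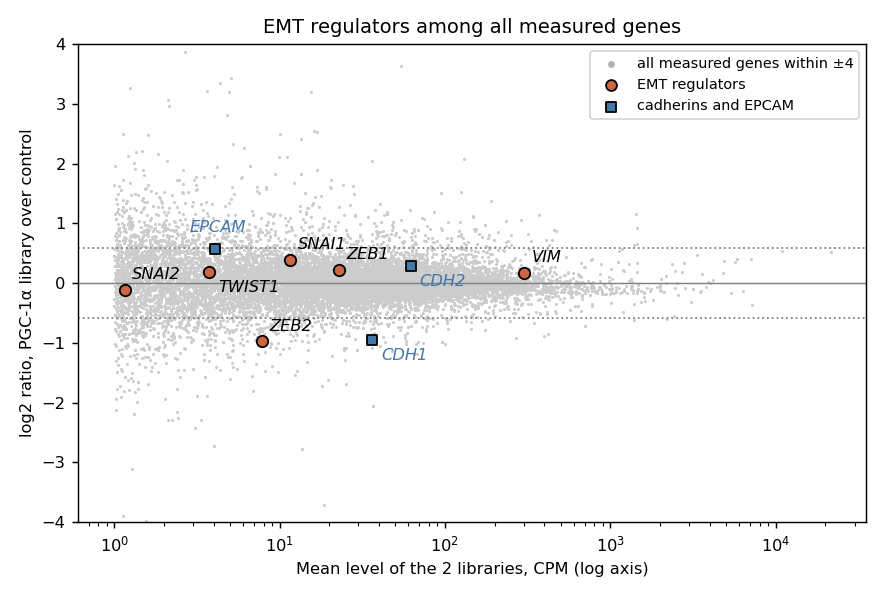
Log2 ratio, PGC-1α over control, against mean level in CPM (log axis) for the measured genes, in grey, with the 6 measured EMT regulators as circles and CDH1, CDH2 and EPCAM as squares; 11 genes beyond ±4 are not drawn. ZEB2 at -0.98 and CDH1 at -0.95 lie below the lower 1.5-fold line, and the other regulators lie between the lines.

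Other transcription factors of both states were listed for comparison. Of 18 such genes 12 were measured, 1 was called higher and 1 lower, beside 9.22% called among all measured genes. The median log2 ratio of the 12 was -0.37. FOXC1, a forkhead factor linked to EMT, was higher with 307 and 421 counts and a log2 ratio of 0.63 (0.41 to 0.84). GRHL3, a grainyhead factor of epithelia, was lower with 145 and 52 counts and a log2 ratio of -1.30 (-1.79 to -0.84). GRHL3 overlaps the more abundant STPG1 on the opposite strand, with 340 and 197 counts.

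Among 27 epithelial junction and surface genes, 19 were measured, 4 were called lower and 2 higher, with a median log2 ratio of -0.22. Thus 6 of 19 were called, against 9.22% of all measured genes. KRT19, a simple-epithelial keratin gene, was lower, with 65.5 and 29.8 CPM and a log2 ratio of -1.13 (-1.26 to -1.01). JUP, the plakoglobin gene of junction plaques, was lower, with 351 and 185 CPM and a log2 ratio of -0.93 (-0.98 to -0.87). CLDN4, a tight junction claudin gene, was lower with 90 and 47 counts, a log2 ratio of -0.76 (-1.31 to -0.24). CRB3, a polarity gene, was higher with 63 and 92 counts, a log2 ratio of 0.71 (0.24 to 1.20). On the opposite strand it overlaps SLC25A23, with 924 and 1166 counts, and DENND1C, with 114 and 108. The counts of CRB3 are thus uncertain without a strand setting. CDS1, a phospholipid synthesis gene named after its values were seen, was the other gene called higher, with 58 and 78 counts and a log2 ratio of 0.60 (0.09 to 1.12). With a mean of at least 5 CPM, 3 genes of this group were called, KRT19, JUP and CDH1, all lower. CLDN4, CRB3 and CDS1 lay under that level, so fewer than 19 genes of the group remained. Among all 11094 genes at that level, 382 were called higher and 267 lower.

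Mesenchymal genes gave calls on both sides. Of the 25 genes 22 were measured, 3 were called lower and 2 higher, and the median log2 ratio was -0.03. Thus 5 of 22 were called, also beside 9.22% of all measured genes. TAGLN, an actin-binding protein gene of smooth muscle, was lower with 426 and 192 counts, a log2 ratio of -0.98 (-1.23 to -0.73), and overlaps PCSK7, which had 667 and 643 counts. The matrix genes SPARC at -0.85 (-1.16 to -0.56) and MMP2, a gelatinase gene with 251 and 138 counts, at -0.69 were also lower. The collagen gene COL1A1 at 0.66 (0.50 to 0.82) and the collagen cross-linking enzyme gene LOX at 0.71 (0.14 to 1.30) were higher. LOX had 44 and 64 counts and overlaps the more abundant SRFBP1.

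None of the measured genes for partners or turnover of the repressors was called. Lists this short would hold few called genes at the share of all measured genes. All 16 corepressor genes of ZEB and SNAI were measured and 0 were called, beside 9.22% of all measured genes, with log2 ratios from -0.39 to 0.29 and a median of 0.01. The most expressed were LOXL2, a lysyl oxidase that binds SNAI1, at 288 and 316 CPM, and AJUBA, a LIM protein that links SNAI1 to corepressors, at 180 and 138 CPM. AJUBA had the lowest ratio of the group, -0.39 (-0.45 to -0.32). Of 16 genes for turnover of SNAI and ZEB proteins, 15 were measured and 0 were called, again beside 9.22%, with log2 ratios from -0.53 to 0.16. The lowest was that of LATS2, a kinase gene named after its values were seen, with 973 and 597 counts and an interval of -0.68 to -0.38. The most expressed, PSMD14 and USP10, which encode deubiquitinases, had log2 ratios of -0.04 and -0.0027. Protein levels of the repressors were not measured.

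Of 22 other splicing factors of EMT exons, 20 were measured and 1 was called, as higher, near the 9.22% of all measured genes. Their median log2 ratio was -0.07. MBNL3, with no counts, and CELF2, with 0 and 3 counts, were not measured. KHDRBS3, an RNA-binding protein gene of the STAR family, was higher with 35 and 69 counts, a log2 ratio of 1.14 (0.54 to 1.78). Of 22 genes whose exons ESRP proteins are known to regulate, 21 were measured and 1 was called, also near the 9.22% of all measured genes. The called gene was LSR, a receptor gene of tricellular junctions, higher with 162 and 250 counts and a log2 ratio of 0.80 (0.51 to 1.09). The median of this group was -0.03. FGFR2, named after its values were seen, had 3 and 6 counts and was not measured. Counts per gene do not show which exons were used.

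Among 14 intermediate filament genes and partners of vimentin, 12 were measured, with a median log2 ratio of 0.05. Of these 1 was called, as higher, near the 9.22% of all measured genes. It was GFAP, the type III filament gene of astrocytes, with 43 and 132 counts and a log2 ratio of 1.78 (1.28 to 2.32). Its level, 1.58 and 5.45 CPM, was far under that of VIM in both libraries, and in FPKM it stood at 0.131 and 0.447.

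**Figure D4:**
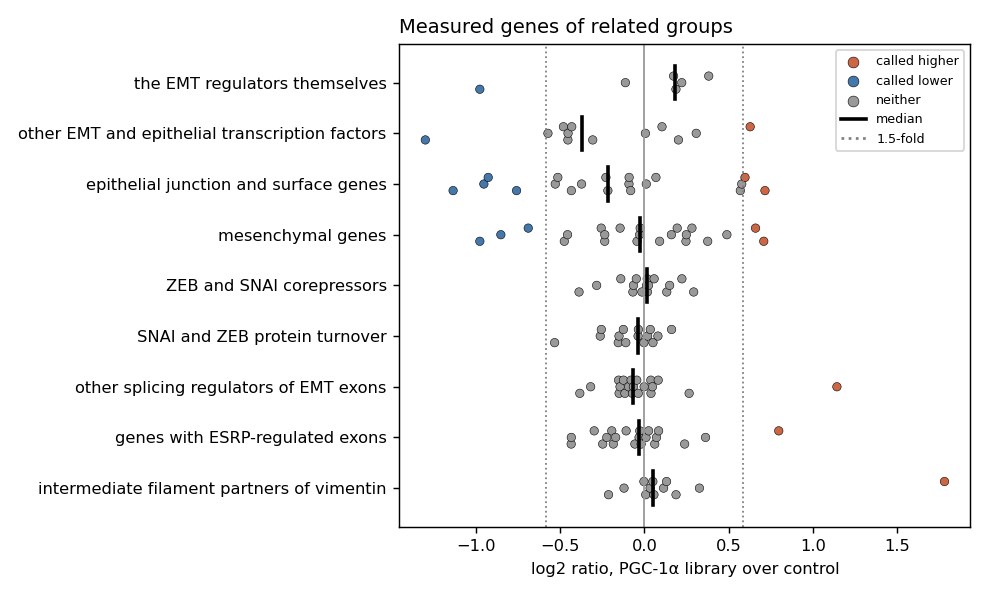
Log2 ratios, PGC-1α over control, for the measured genes of each group, one point per gene, with black bars at the medians and dotted lines at 1.5-fold; orange and blue points were called higher and lower. The corepressor and turnover groups have no coloured point, and the epithelial and mesenchymal groups have coloured points on both sides.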

How the data were processed

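RNA-seq was made from 1 control and 1 PGC-1α-overexpressing library of A549 cells. The authors deposited a raw count and an FPKM value per gene. The submitters' processing notes name Cuffdiff 2.1.1, Cufflinks 2.1.1, TopHat2 2.0.9 and Bowtie2 2.0.6 and give them no roles. For the counter, strand setting and genome build the entry is: not given in the sources used here. Gene coordinates matched GENCODE release 29 on GRCh38 for 97.6% of shared gene identifiers and for 9 of the 10 regulators. The deposited FPKM of all genes above 0 equalled the count divided by length and 1 library size (27089164 and 24367036, relative tolerance 1e-06), so it is no separate measurement.

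Counts were scaled by TMM (edgeR 4.0.16, R 4.3.3). Log2 ratios used 0.5 added to each count, with exact 95% Clopper-Pearson intervals of the split of both counts. The interval and call code was tested on simulated data. A limit of 3 counts stood for 0. Shares of a gene pair have exact binomial intervals, and changes of one gene relative to another are conditional odds ratios. Reads are not independent molecules, so intervals cover counting error only. No p-value was computed, since single libraries leave no residual degrees of freedom.

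The regulators and the 12 comparison lists were chosen with earlier results of these data known. From each list the called genes were named, up to 5, or the 2 most expressed where none was called. CDH1, CDH2, EPCAM and PPARGC1A were always named. Other list genes were named outside this rule, with their values known. Among them were the uncalled or unmeasured markers of other cell types, MBNL3, CELF2 and GRHL2. Alternatives were DESeq2 1.42.0 size factors, total counts, other filters, other thresholds and FPKM with pseudocounts of 0.1 and 1. Python 3.11.15, scipy 1.17.1 and pandas 2.3.3 were used.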

Additional observations from a re-analysis of the deposited data

How the results depend on the processing

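ZEB2 was the regulator called under DESeq2 size factors, total counts, no low-count filter, a filter at 5 CPM, no interval condition and FPKM with a pseudocount of 0.1. With a 2-fold threshold 0 regulators were called, and with an FPKM pseudocount of 1 also 0; there the log2 ratio of ZEB2 was -0.23, because the pseudocount exceeds its FPKM. The other 31 regulator ratios recomputed under 4 scales stayed within their counting intervals. Across all measured genes, 750 were called higher and 555 lower. Without the filter these were 1301 and 885, with the filter at 5 CPM 382 and 267, with a 2-fold threshold 248 and 164, and with an FPKM pseudocount of 1 275 and 215. Of 96 recomputed group counts, chosen after seeing the data, 75 stayed within 1.5 times. DESeq2 size factors and total counts shifted all log2 ratios by -0.02. Depth limits SNAI2, SNAI3, ESRP1, ESRP2 and OVOL1 most. No paired analysis was possible because each group holds 1 library.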

Other observations

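Some EMT and filament genes under the filter of 1 CPM met the fold and interval conditions. They were picked after their values were seen. Without the filter, 1301 of 28660 genes were called higher and 885 lower. GSC, the homeobox gene goosecoid, which can induce EMT, had 1 and 16 counts, for control and PGC-1α, with a log2 ratio of 3.63 (1.49 to 9.56). No gene overlapping GSC held a count in either library. FOXC2, a forkhead gene linked to mesenchymal differentiation, had 10 and 21 counts, a log2 ratio of 1.21 (0.09 to 2.49). DES, the muscle filament gene desmin, had 0 and 7 counts, and the lower 95% limit of its log2 ratio was 0.70. PRPH, the filament gene peripherin, lay on the other side with 12 and 5 counts. Its log2 ratio was -1.01 (-2.95 to 0.52), and it was not called. GRHL2, a grainyhead factor gene of epithelia, had 0 counts in each library.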
